A study of Camellia sinensis with 6 samples.

Results

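CL10604.Contig1_All and CL10604.Contig2_All (CL10604.Contig1 and CL10604.Contig2 from here on) are the 2 contigs of cluster CL10604 of the tea leaf assembly. Their best Swiss-Prot hits were cytochrome P450s of family 82, and they make up 2 of the 127252 unigenes with values. They were selected on their measured levels, chosen by both being higher in every shaded library than in every sunlight library. The levels and fold changes of these 2 contigs between shaded and sunlight leaves are therefore given as a description, without a test. ‘Huangjinya’ is a tea (Camellia sinensis) cultivar with yellow leaves in sunlight. The shaded group had 3 leaf RNA libraries (Y+S1, Y+S2 and Y+S3) from plants grown under a net that took away 45% of the light for 10 days, and the sunlight group had 3 (Y1, Y2 and Y3) from plants of the same field with no net. All plants were 2 years old, all leaves came from the third position below the tip, and the repeats of each group came from different plants. The study dropped Y+S3 and Y1 from its own search for changed genes, so fold changes are given over all 6 libraries and over the other 4. Values by library stand in the order of the library numbers. The names follow the key of the deposited table, with which the sample descriptions conflict for 2 libraries, always within a group.

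Cytochrome P450s are heme enzymes that insert an oxygen atom into small molecules, with electrons passed to them by NADPH-cytochrome P450 reductase or cytochrome b5. Family 82 is a plant family. In Arabidopsis, CYP82C4 hydroxylates the coumarin fraxetin to sideretin, a catechol that binds and reduces iron, and its gene is switched on when roots are short of iron. CYP82C2 of Arabidopsis acts in the synthesis of an indole defence compound, and CYP82G1 makes volatile homoterpenes. What the tea proteins do is not given by the annotation, which rests on sequence hits alone.

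CL10604.Contig2 was the long contig, with 1971 nt, and its best Swiss-Prot hit was Arabidopsis CYP82C4 with a Blast score of 502. CL10604.Contig1 had 429 nt, its best hit among all proteins was a tomato protein named cytochrome P450 82C4-like, and its best Swiss-Prot hit was Arabidopsis CYP82G1 with a score of 186. The best hit of CL10604.Contig2 among all proteins was a castor bean protein named only as a putative cytochrome P450. The subfamily name 82C thus comes from Swiss-Prot for CL10604.Contig2 and from the other database for CL10604.Contig1. The best KEGG hit of both was Arabidopsis AT4G31940, the gene of CYP82C4. That gene was the best KEGG hit of 11 unigenes of the assembly, and these were the same 11 that were annotated as family 82. The GO terms of CL10604.Contig1 named the cellular response to iron ion, the response to hypoxia, heme binding and flavonoid 3'-monooxygenase activity. Those of CL10604.Contig2 named monooxygenase activity and metal ion binding.

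CL10604.Contig2 stood among the abundant unigenes of both groups. Its level in FPKM, which corrects the count for unigene length and library size, was 90.5, 127.2 and 113.3 in Y+S1 to Y+S3, against 22.8, 29.04 and 38.5 in Y1 to Y3. The shaded libraries averaged 110.3 ± 18.5 and the sunlight libraries 30.1 ± 7.92 (SD, n = 3 each), a ratio of 3.66. The lowest shaded library had 2.35 times the level of the highest sunlight library. These levels rest on 3342, 3425 and 2500 fragments in Y+S1 to Y+S3, against 561, 617 and 761 in Y1 to Y3. The mean FPKM exceeded that of 99.1% of all unigenes in shaded leaves and of 96.7% in sunlight leaves.

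CL10604.Contig1 was at a low level in sunlight and differed more between the groups. It had 20.4, 20.1 and 43.5 FPKM in Y+S1 to Y+S3, against 1.49, 1.95 and 1.16 FPKM in Y1 to Y3. The mean was 28.0 ± 13.4 FPKM in shaded leaves and 1.53 ± 0.393 FPKM in sunlight leaves (SD, n = 3 each), a ratio of 18.3, and the lowest shaded library had 10.3 times the level of the highest sunlight library. The shaded values rest on 164, 118 and 209 fragments in Y+S1 to Y+S3, and the sunlight values on only 8, 9 and 5 in Y1 to Y3. The 95% exact Poisson limits of the counts put Y+S3 between 37.8 and 49.8 FPKM, above the upper limit of 24.1 in Y+S2 and of 23.8 in Y+S1. In sunlight the limits ran from 0.378 to 3.69 FPKM over the 3 libraries and overlapped each other. Such limits cover counting error only. CL10604.Contig1 exceeded 96.5% of all unigenes by mean FPKM in shaded leaves and 59.7% in sunlight leaves. In bulk leaf RNA, more cells of a type that holds these transcripts and more transcript per cell cannot be told apart.

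**Figure D1:**
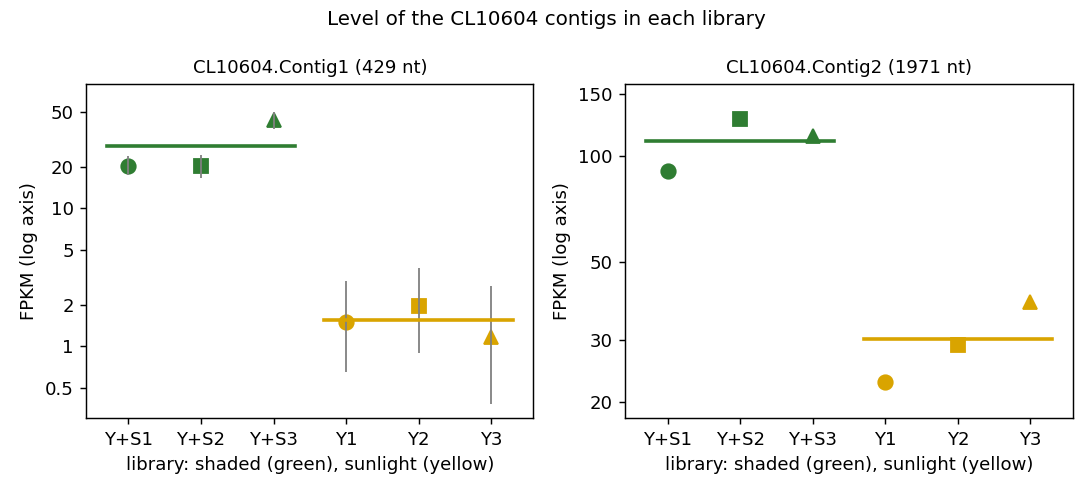
FPKM of CL10604.Contig1 (left) and CL10604.Contig2 (right) on log axes in the 3 shaded libraries (green) and the 3 sunlight libraries (yellow), with horizontal lines at the group means and grey bars for the 95% Poisson limits of the count of CL10604.Contig1. The shaded libraries lie between 20.1 and 43.5 FPKM for CL10604.Contig1 and between 90.5 and 127.2 FPKM for CL10604.Contig2, above all sunlight libraries.

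TMM, which scales libraries by the bulk of their unigenes, raised the values of Y+S3 and Y1, with factors of 0.695 and 0.761 against 1.08 to 1.29 in the others. CL10604.Contig2 had 163, 200 and 329 TMM-scaled CPM in Y+S1 to Y+S3, against 60.1, 54.02 and 64.4 in Y1 to Y3, so on this scale Y+S3 was its highest library. CL10604.Contig1 had 8.01, 6.88 and 27.5 TMM-scaled CPM in Y+S1 to Y+S3, against 0.857, 0.788 and 0.423 in Y1 to Y3, and the groups of neither contig overlapped. On these counts edgeR gave CL10604.Contig1 a log2 fold change (shaded over sunlight) of 4.34 over 6 libraries and 3.63 over the 4 that the study kept. Those of CL10604.Contig2 were 1.95 and 1.63. Without Y+S3 the 6-library value of CL10604.Contig1 was 3.44, and this library alone moved the fold by more than 1.5 times. In the order of log2 fold changes CL10604.Contig1 stood at place 70 of 59300 unigenes over 6 libraries and at place 151 of 64281 over 4. CL10604.Contig2 stood at place 2436 and place 1265.

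The contigs of the pair did not keep a fixed ratio. The FPKM of CL10604.Contig1 divided by that of CL10604.Contig2 was 0.226, 0.158 and 0.384 in Y+S1 to Y+S3, against 0.0655, 0.0670 and 0.0302 in Y1 to Y3. The ratio was higher in each shaded library than in any sunlight library, and it varied by more than 2 times within each group. In counts, CL10604.Contig1 gave 4.68% of the fragments of the pair in Y+S1 (exact 95% binomial interval 4.003 to 5.43%), 3.33% (2.76 to 3.98%) in Y+S2 and 7.72% (6.74 to 8.78%) in Y+S3. Its shares in sunlight were 1.41% in Y1 (0.609 to 2.75%), 1.44% in Y2 (0.660 to 2.71%) and 0.653% in Y3 (0.212 to 1.52%). The intervals of the sunlight libraries overlapped one another, and that of Y+S2 began just above the highest limit in sunlight. Over the 6 libraries the levels of both contigs, as log2(CPM + 0.5) after TMM scaling, had a Pearson r of 0.979, which describes 2 contigs that share the same libraries and were chosen for the same pattern.

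Unigenes that shared a best hit with a contig of the pair followed CL10604.Contig1 in level. Unigene2785 (766 nt) had the tomato protein of CL10604.Contig1 as its best hit, and Unigene52095 (225 nt) had the castor bean protein of CL10604.Contig2. Unigene2785 had 21.8, 24.3 and 33.4 FPKM in Y+S1 to Y+S3, against 1.46, 2.42 and 1.30 FPKM in Y1 to Y3. Its groups were 9.001 times apart at their nearest libraries. Unigene52095 had 26.6, 25.7 and 48.4 FPKM in Y+S1 to Y+S3, against 3.20, 1.65 and 2.66 FPKM in Y1 to Y3. Its sunlight counts were only 9, 4 and 6 fragments, and its groups were 8.02 times apart at their nearest libraries.

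The ratio of Unigene2785 to CL10604.Contig1 in FPKM was 1.07, 1.21 and 0.766 in Y+S1 to Y+S3, against 0.980, 1.24 and 1.12 in Y1 to Y3, so it stayed near 1 in both groups. That of Unigene52095 to CL10604.Contig1 was 1.30, 1.28 and 1.11 in Y+S1 to Y+S3, against 2.15, 0.847 and 2.29 in Y1 to Y3. CL10604.Contig1, Unigene2785 and Unigene52095 together spanned 1420 nt, less than the 1971 nt of CL10604.Contig2. Their sequences were not analysed here, and whether they are pieces of 1 transcript was not tested. They need not be independent genes.

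**Figure D2:**
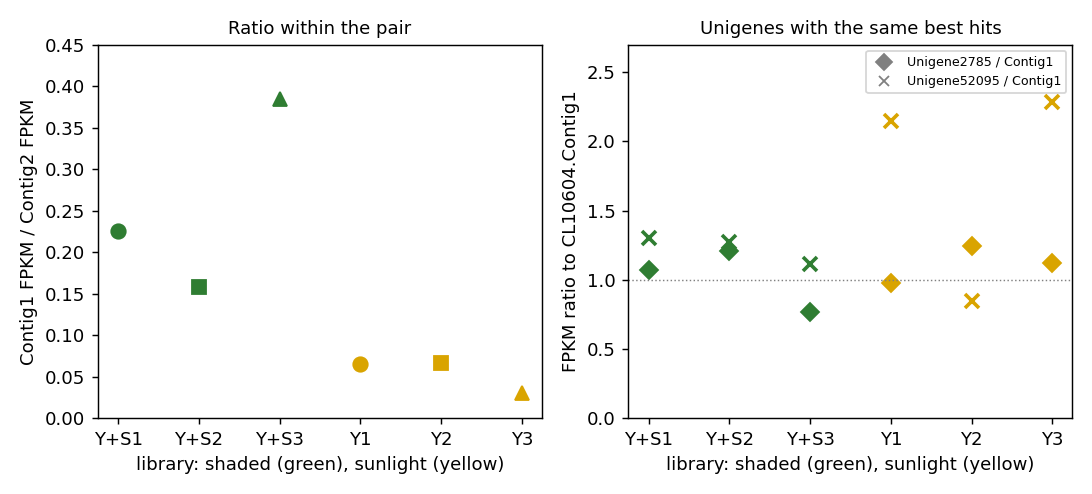
FPKM ratios by library, shaded in green and sunlight in yellow: CL10604.Contig1 over CL10604.Contig2 (left), and Unigene2785 (diamonds) and Unigene52095 (crosses) over CL10604.Contig1 (right, dotted line at 1). The ratio within the pair lies between 0.158 and 0.384 in shaded libraries and between 0.0302 and 0.0670 in sunlight libraries, while Unigene2785 stays between 0.766 and 1.24 times CL10604.Contig1 in all 6.

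Unigene2785 rose in shaded leaves over the 4 libraries, with a log2 fold change of 3.55 ± 0.38 (SE) and an adjusted p of 0.0437 by edgeR’s quasi-likelihood test with Benjamini-Hochberg adjustment over all unigenes. Leaving out Y2 or Y3 ended this call, with adjusted p values of 0.212 and 0.187 by edgeR. Limma on log2(FPKM + 0.1) ended it too, with an adjusted p of 0.0522. Over 6 libraries the log2 fold change was 4.04 ± 0.55 and the adjusted p 0.475 by edgeR, which called no unigene at all in that fit. DESeq2 gave adjusted p values of 1.29e-09 over 4 libraries and 1.32e-07 over 6. Over all alternatives of tool, filter, scaling, block and left-out library, the adjusted p of Unigene2785 ran from 3.07e-18 to 0.212 over 4 libraries and from 1.32e-07 to 0.984 over 6. Unigene52095 had a log2 fold change of 3.55 ± 0.42 and an adjusted p of 0.0595 by edgeR over 4 libraries, which missed the threshold of 0.05, and 0.00017 by DESeq2, with a range of 1.22e-10 to 0.492 over all alternatives of that fit. Over 6 libraries the log2 fold change of Unigene52095 was 3.83 ± 0.68, and its adjusted p was 0.485 by edgeR and 0.000204 by DESeq2, with a range of 0.000204 to 1.

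The other 7 unigenes of family 82 were mixed. CL13235.Contig1 (1880 nt, best Swiss-Prot hit CYP82C4) had 15.1, 18.9 and 98.8 FPKM in Y+S1 to Y+S3, against 4.94, 6.86 and 7.43 FPKM in Y1 to Y3. Its groups did not overlap, but Y+S3 stood far above the other shaded libraries: the log2 fold change was 3.17 over 6 libraries and 1.17 without Y+S3. Its adjusted p by edgeR was 0.533 over 6 libraries and 0.147 over 4, where DESeq2 gave 0.0338 and all alternatives ran from 0.00197 to 0.842. In FPKM CL10604.Contig2, with the same Swiss-Prot hit, was no higher in Y+S3 than in Y+S2. On TMM-scaled counts Y+S3 was its highest library too, with 329 CPM against 200 in Y+S2.

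Unigene57605 (1664 nt), also with CYP82C4 as its best hit, was the second most abundant unigene of the family by its mean over the 6 libraries. It had 39.2, 29.7 and 25.4 FPKM in Y+S1 to Y+S3, against 26.3, 20.9 and 22.1 FPKM in Y1 to Y3, and its groups overlapped. The lowest shaded library was 0.967 times the highest sunlight library, which put it just outside the pattern by which the pair was chosen. In shaded leaves CL10604.Contig2 averaged 110.3 ± 18.5 FPKM and Unigene57605 31.4 ± 7.09 FPKM, whereas in sunlight leaves CL10604.Contig2 averaged 30.1 ± 7.92 FPKM and Unigene57605 23.1 ± 2.83 FPKM (SD, n = 3 each).

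The 3 unigenes whose best hit was a soybean CYP82A had log2 fold changes below 0, none past the threshold. Unigene14826 (CYP82A3) had 0.709, 2.64 and 1.88 FPKM in Y+S1 to Y+S3, against 4.39, 4.16 and 3.81 FPKM in Y1 to Y3. All its shaded libraries were below all its sunlight libraries, with a log2 fold change of -1.26 over 6 libraries and an adjusted p of 0.621 by edgeR. CL1804.Contig1 and CL1804.Contig2 (both CYP82A4) had log2 fold changes of -0.30 and -0.26 over 6 libraries, and their groups overlapped. Without Y+S2 that of CL1804.Contig1 was 0.029, and without Y2 that of CL1804.Contig2 was 0.058. The low-level Unigene50977 (CYP82C3) and Unigene10464 (CYP82C2) had log2 fold changes of 1.07 and -0.82, and their groups overlapped too.

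**Figure D3:**
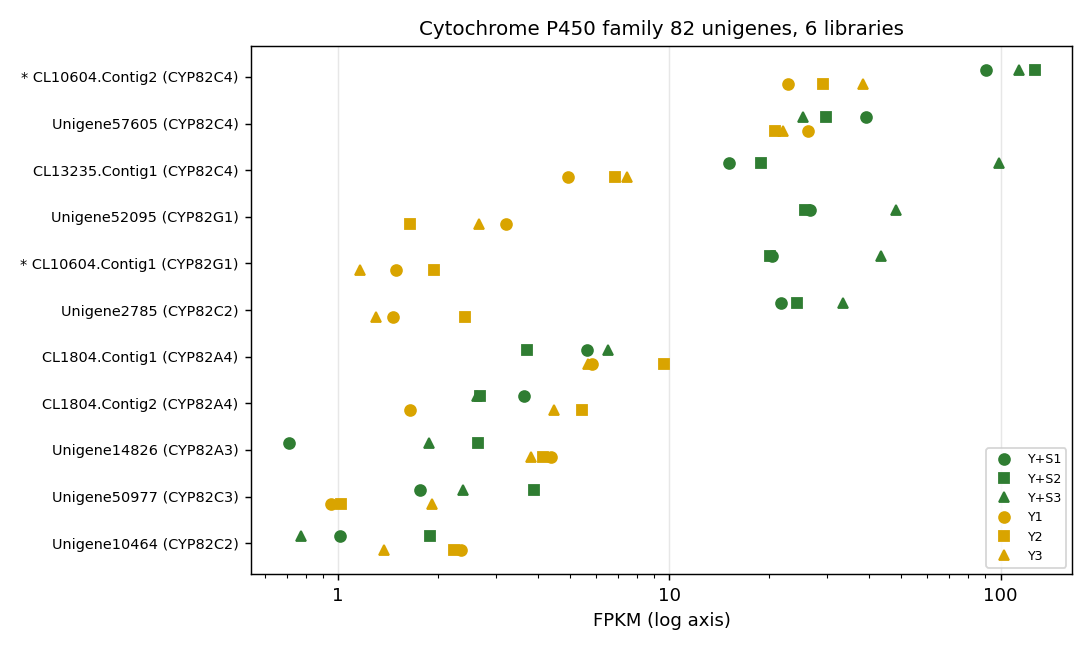
FPKM on a log axis of the 11 family 82 unigenes in each library, in the order of mean level, with the best Swiss-Prot hit in brackets and asterisks at the CL10604 contigs. Shaded libraries are green and sunlight libraries yellow, and CL10604.Contig2, CL13235.Contig1, Unigene52095, CL10604.Contig1 and Unigene2785 are the 5 whose shaded libraries all lie to the right of their sunlight libraries.

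Of the 9 family 82 unigenes outside the pair, 1 was called higher and 0 lower at an adjusted p of 0.05 by edgeR over 4 libraries, where 0.0451% of the unigenes tested were called higher and 0.00778% lower. Over 6 libraries 0 of the 9 were called by edgeR, as were 0.00% of all. At an unadjusted p below 0.05 in edgeR, 4 were higher and 1 was lower over 4 libraries (7.23% and 7.69% of all), and 4 were higher and 0 lower over 6 (4.39% and 3.67% of all). DESeq2 gave an adjusted p to 8 of the 9 in each fit and called 3 of them higher and 0 lower over 4 libraries (1.31% and 1.59% of all), and 2 higher and 0 lower over 6 (0.699% and 0.291% of all). The edgeR call was Unigene2785. The DESeq2 calls over 6 libraries were Unigene2785 and Unigene52095, which share a best hit with the pair and need not be independent of it. Those over 4 libraries were the same and CL13235.Contig1.

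On TMM-scaled counts of the 6 libraries, 3 of the 9 were higher in all shaded than in all sunlight libraries and 1 was lower, against 6.67% higher and 7.28% lower among all unigenes tested. In FPKM the same counts were found, against 4.07% and 7.83% of all. Over the 4 libraries that the study kept, 4 of the 9 were higher without overlap and 2 lower, against 22.97% and 24.97% of all. The median log2 fold change of the 9 was 0.40 over 6 libraries and 0.65 over 4, and that of all unigenes tested was 0.04 and 0.03. Of the 3 that did not overlap upwards over 6 libraries, 2 are those that share a best hit with the pair.

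The pair, and within it chiefly CL10604.Contig2, held a large part of the family’s fragments. The pair gave 58.6%, 67.0% and 46.2% of the fragments of the 11 unigenes in Y+S1 to Y+S3, against 38.1%, 42.3% and 50.2% in Y1 to Y3. CL10604.Contig2 alone gave 55.8%, 64.7% and 42.6% in Y+S1 to Y+S3, against 37.6%, 41.7% and 49.9% in Y1 to Y3. Fragment shares are not corrected for length, and CL10604.Contig2 is the longest of these unigenes. These shares overlapped between the groups: Y+S3, the library in which CL13235.Contig1 was high, fell within the sunlight range. The family as a whole had 319, 387 and 524 CPM (counts scaled to library totals) in Y+S1 to Y+S3, against 119, 137 and 152 in Y1 to Y3. The pair contributed 187, 259 and 242 of these in Y+S1 to Y+S3, and 45.6, 58.1 and 76.4 in Y1 to Y3.

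Among the other 281 unigenes annotated as cytochrome P450s, 156 were tested over 6 libraries, and their median log2 fold change was 0.22. Of these, 24 (15.4%) did not overlap upwards and 10 (6.41%) did not overlap downwards, against 6.67% and 7.28% of all unigenes tested. None was called at an adjusted p of 0.05 by edgeR, and at an unadjusted p below 0.05 there were 19 higher and 8 lower (4.39% and 3.67% of all). DESeq2 called 9 higher and 2 lower (0.699% and 0.291% of all). The log2 fold change of CL10604.Contig1 lay below the highest of these 156, which was 5.18. The electron donors of P450s, NADPH-cytochrome P450 reductases and cytochrome b5 with its reductase, had a median of 0.07 over 54 tested unigenes of 88. Of these, 3 (5.56%) were higher and 2 (3.70%) lower without overlap on TMM-scaled counts, against 6.67% and 7.28% of all. Among them Unigene19903 (higher) and Unigene982 (lower) also count among the P450s above. In FPKM 0 of the electron donors were higher and 7 lower, against 4.07% and 7.83% of all. Over the 4 libraries 4 of them were higher and 22 lower, against 22.97% and 24.97% of all. Unigene772, a cytochrome b5 of tea, had 57.2, 123 and 120 FPKM in Y+S1 to Y+S3, against 426, 197 and 188 FPKM in Y1 to Y3. Its groups did not overlap in FPKM but did on TMM-scaled counts. Its log2 fold change was -1.49 over 6 libraries, and -0.64 without Y1, and it was -1.18 over 4. The adjusted p was 0.620 over 6 libraries and 0.207 over 4 by edgeR, and 0.351 and 0.0334 by DESeq2, the last of which passed the threshold. Over all alternatives it ran from 0.252 to 1 over 6 libraries and from 5.68e-05 to 0.888 over 4. The most abundant one, Unigene15696, had 404 ± 129 FPKM in shaded leaves and 440 ± 203 FPKM in sunlight leaves (SD, n = 3 each), and its groups overlapped.

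In Arabidopsis, feruloyl-CoA ortho-hydroxylase starts the route to the coumarins on which CYP82C4 acts. All 5 unigenes tested from the 10 of the list of coumarin enzymes and exporters had this enzyme as their best Swiss-Prot hit. Their median log2 fold change was -0.08 over 6 libraries. Unigene10616, the most abundant one, had 49.8, 63.7 and 50.3 FPKM in Y+S1 to Y+S3, against 45.7, 65.4 and 67.9 FPKM in Y1 to Y3. Its groups overlapped fully, unlike those of the pair. CL498.Contig2 had 9.07 ± 0.898 FPKM in shaded leaves and 10.5 ± 2.62 FPKM in sunlight leaves (SD, n = 3 each). Its best hit among all proteins was named gibberellin 3-beta-dioxygenase 4-like, so its place in this list rests on Swiss-Prot. At a lower level, Unigene14974 had 4.35, 2.68 and 4.16 FPKM in Y+S1 to Y+S3, against 1.07, 2.08 and 1.66 FPKM in Y1 to Y3. It was the only 1 of the 5 whose groups did not overlap, against 6.67% higher and 7.28% lower among all unigenes tested. Unigene33637 had a log2 fold change of 2.23 over 6 libraries, and its groups overlapped. Both were named after their values had been seen. At an unadjusted p below 0.05 in edgeR over 6 libraries, 2 of the 5 were higher and 0 lower (4.39% and 3.67% of all).

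The list of enzymes that supply feruloyl-CoA from cinnamate held more unigenes that were higher than lower without overlap. Of 41 unigenes tested from a list of 67, 10 were higher without overlap and 1 was lower, against 6.67% and 7.28% of all unigenes, and the median log2 fold change was 0.21 over 6 libraries and 0.39 over 4. CL1938.Contig2, a caffeoyl-CoA O-methyltransferase, which makes feruloyl-CoA, had 145.9, 84.2 and 125.3 FPKM in Y+S1 to Y+S3, against 38.05, 58.3 and 59.4 FPKM in Y1 to Y3. Its log2 fold change of 1.30 had an adjusted p of 0.555 by edgeR. Unigene10114, a p-coumaroyl 3'-hydroxylase of P450 family 98, had 130.1 ± 14.7 FPKM in shaded leaves and 123 ± 37.3 FPKM in sunlight leaves (SD, n = 3 each), and its groups overlapped. These enzymes also serve lignin and other phenylpropanoids.

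The list of iron storage and its regulators held unigenes that were lower without overlap. Of 24 tested from 29, 7 (29.2%) were lower and 0 were higher, against 7.28% and 6.67% of all unigenes tested, and the median log2 fold change was -0.17 over 6 libraries and -0.38 over 4. CL8304.Contig2, which has a chloroplast ferritin, an iron store, as its best hit, had 34.9, 42.3 and 17.2 FPKM in Y+S1 to Y+S3, against 75.2, 82.8 and 99.1 FPKM in Y1 to Y3. All shaded libraries were thus below all sunlight libraries, the reverse of the pair. Its log2 fold change was -1.53 ± 0.32 over 6 libraries and -1.29 ± 0.23 over 4, with adjusted p values of 0.496 and 0.127 by edgeR and of 0.00212 and 0.00148 by DESeq2. Its adjusted p over all alternatives ran from 0.00148 to 0.775 over 4 libraries and from 0.00212 to 1 over 6. Unigene3259, a ferritin-2, had 39.5 ± 21.2 FPKM in shaded leaves and 52.5 ± 11.4 FPKM in sunlight leaves (SD, n = 3 each). Its groups overlapped in FPKM, but on TMM-scaled counts it was lower without overlap and so is among the 7. Its log2 fold change was -0.52 over 6 libraries, with an adjusted p of 0.689 by edgeR.

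The list of iron uptake, chelation and movement went both ways. Of 74 unigenes tested from 104, 6 (8.11%) were higher and 7 (9.46%) lower without overlap on TMM-scaled counts, near the 6.67% and 7.28% of all. In FPKM 0 were higher and 4 lower, against 4.07% and 7.83% of all, and the median log2 fold change was 0.00. CL9010.Contig1, a nicotianamine synthase, which makes a chelator that carries iron in the plant, had 78.0, 4.603 and 50.3 FPKM in Y+S1 to Y+S3, against 142, 126 and 279 FPKM in Y1 to Y3. Its adjusted p was 0.635 by edgeR over 6 libraries. CL9859.Contig1, named a yellow stripe-like protein by 1 database and cytochrome b5 by the other, had 45.4 ± 25.1 FPKM in shaded leaves and 61.2 ± 22.8 FPKM in sunlight leaves (SD, n = 3 each), with overlap. No unigene of the coumarin and iron lists together was called by edgeR in either fit. DESeq2 called 3 higher and 1 lower over 4 libraries (1.31% and 1.59% of all) and 3 higher and 2 lower over 6 (0.699% and 0.291% of all). All of the higher calls were of the feruloyl-CoA supply list, and the lower ones were of the 2 iron lists. At an unadjusted p below 0.05 in edgeR over 6 libraries, 14 were higher and 8 were lower (4.39% and 3.67% of all). By list, these were 9 higher and 0 lower of the 41 tested for feruloyl-CoA supply and 0 and 5 of the 24 for iron storage. They were 3 and 3 of the 74 for iron uptake and 2 and 0 of the 5 for coumarin enzymes. Each list rests on words in the annotation, so alleles and fragments of 1 gene can count more than once. Some unigenes, such as CL9859.Contig1, stand in more than 1 list.

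**Figure D4:**
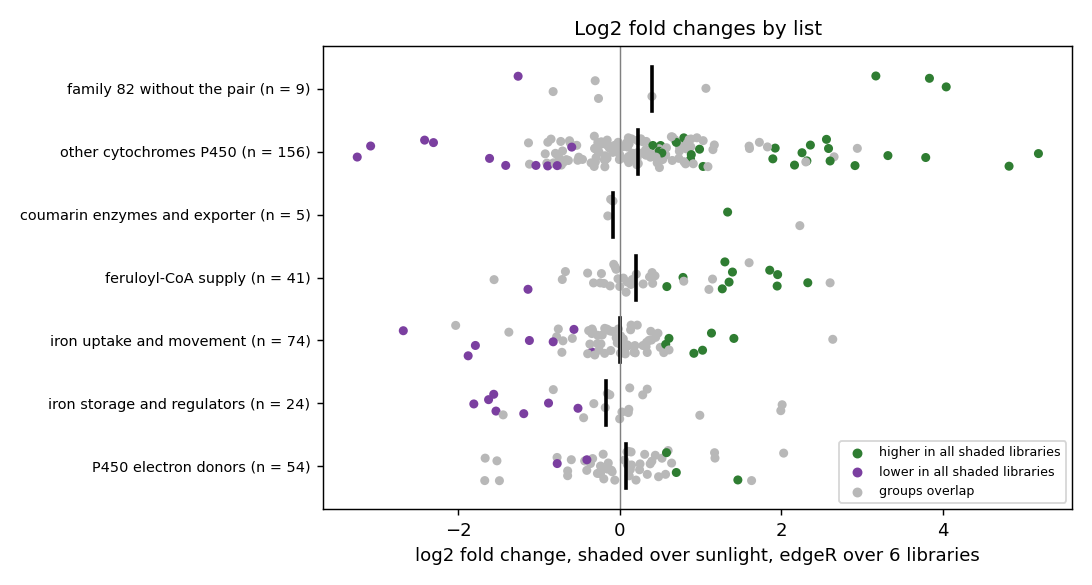
Log2 fold change (shaded over sunlight, edgeR, 6 libraries) of each tested unigene of the family 82 and pathway lists, with black bars at the medians and points spread vertically for legibility. Green points are unigenes higher in all shaded libraries on TMM-scaled counts, purple ones lower, and the medians run from -0.17 for iron storage to 0.40 for family 82 without the pair.

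The unigenes whose pattern was most like that of the pair were ranked by Pearson r of log2(CPM + 0.5) with the mean of the 2 contigs over the 6 libraries, among 52374 unigenes with a mean of at least 1 FPKM. This is a description over 6 points, most of which is the difference between the groups, and 248 unigenes had an r of at least 0.95. The 10 highest with a protein hit held both unigenes that share a best hit with the pair, Unigene2785 (r = 0.992) and Unigene52095 (r = 0.991). Unigene40254, a 4-coumarate:CoA ligase, which activates cinnamic acids for phenylpropanoid synthesis, had 20.6, 20.5 and 17.5 FPKM in Y+S1 to Y+S3, against 6.85, 8.47 and 9.54 FPKM in Y1 to Y3 (r = 0.992). CL7072.Contig2, a chloroplast carbonic anhydrase, which interconverts CO2 and bicarbonate, had 120, 174 and 1067 FPKM in Y+S1 to Y+S3, against 4.07, 2.604 and 3.50 FPKM in Y1 to Y3 (r = 0.997). Like CL10604.Contig1, it was highest in Y+S3. The others were CL5488.Contig3 (vinorine synthase), Unigene51216 and CL5491.Contig2 (UPF0481 proteins), CL8875.Contig4 (a choline transporter-like protein), Unigene33481 (heat shock protein 83) and CL13342.Contig2 (a histidine phosphotransfer protein with 28, 25 and 21 fragments in Y+S1 to Y+S3, against 0 in each sunlight library). Of these 10, only 2 remained among the 10 most alike without Y+S3.

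Marker lists summed on library totals, and the depth of the libraries, overlapped between the groups. The heat shock list, which earlier results of these libraries had singled out, summed to 8590, 9337 and 3339 CPM in Y+S1 to Y+S3, against 3052, 4240 and 4797 in Y1 to Y3, with 0 of its unigenes at 0 in all libraries. On library totals Y+S3 was thus within the sunlight range for this list. TMM scaling, with factors of 0.695 and 0.761 in Y+S3 and Y1 against 1.08 and 1.21 in Y2 and Y3, raises Y+S3 and Y1. The overlap is therefore given for library totals only. On TMM-scaled counts, 30 of the 116 heat shock unigenes tested over 6 libraries (25.9%) were higher without overlap and 10 (8.62%) lower. Among all unigenes tested, the shares were 6.67% and 7.28%. The leaf list, chlorophyll-binding proteins and the small Rubisco subunit, summed to between 32838 and 66396 CPM in shaded and between 45762 and 50853 in sunlight libraries, so leaf markers were abundant in all 6. Y+S3 and Y1 also had the lowest mean unigene length weighted by counts, 1376 and 1341 nt, against 1508 to 1675 nt in the other libraries. The part of these differences in the levels of the pair was not tested. Library totals ran from 11193435 to 18742989 fragments in shaded and from 10022397 to 12488215 in sunlight libraries.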

How the data were processed

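Leaf RNA of 6 libraries, 3 shaded and 3 sunlight, was sequenced by the authors from stranded mRNA libraries on 1 lane. Adapters, low-quality reads and reads rich in unknown bases were removed, and the rest were assembled into unigenes with Trinity, TGICL and Phrap. The authors deposited raw counts of uniquely aligned fragments and FPKM for each unigene and library, and the Blast score of each best hit. The aligner and the use of strand are not given in the sources used here. Fragments that match several contigs are not counted, so contigs of near-identical sequence are less certain. FPKM recomputed from the counts and lengths differed by no more than 0.0002. Of 127253 lines, 1 held no values. Library codes were taken from the key that comes with the table. The codes in the sample descriptions conflict with it for 2 libraries, within their groups, so values named for Y+S3, Y+S1, Y1 and Y3 depend on the key. The fits over 4 libraries, which leave out Y+S3 and Y1, depend on it too. Within each group, the fragment totals under the key fall in the same order as the clean reads that the paper lists by library.

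After filterByExpr and TMM scaling, the counts were fitted by the quasi-likelihood method of edgeR 4.0.16 (R 4.3.3) with Benjamini-Hochberg adjustment, over the 4 libraries the study kept and over all 6. The threshold was an adjusted p of 0.05. At the stricter threshold of the study (0.001, and a 1 log2 unit change) edgeR called 0 unigenes in either fit. The biological coefficient of variation was 0.282 over 4 libraries and 0.513 over 6. Each SE of an edgeR log2 fold change was derived from the test, as the size of the fold change divided by the square root of the F statistic. At 3 counts, the limit for a count of 0, a library allows 0.160 to 0.299 CPM. The fits were tested on simulated data first.

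The members and the lists were chosen with earlier results of these data known, and the list of all P450s was added after the data had been seen. Lists were matched by words in the annotation, and 5 false matches were removed from the iron storage list. Named unigenes were the pair, those with the same best hit, the family, the 2 most abundant and any called unigene of each list, and the 10 most like the pair. The exceptions are named in the text. The heat shock and leaf lists are given as sums, and the heat shock list also as counts without overlap. Alternatives used DESeq2 1.42.0, limma 3.58.1, upper quartile scaling, no filter, a replicate block and leaving out each library. The remaining steps were run in Python 3.11.15, with scipy 1.17.1 for intervals, pandas 2.3.3 for tables and matplotlib 3.10.9 for plots.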

Additional observations from a re-analysis of the deposited data

How the results depend on the processing

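The log2 fold changes of the pair kept their direction in all alternatives. The choice of the pair by this same contrast had largely fixed that outcome, so it is no support for a change. Leaving out 1 library at a time gave 3.20 to 4.13 over 4 libraries and 3.44 to 4.67 over 6 for CL10604.Contig1, and 1.47 to 1.76 and 1.62 to 2.14 for CL10604.Contig2. The share of CL10604.Contig1 in the pair averaged 5.24% of counts in shaded and 1.17% in sunlight libraries, but 19.9% and 5.12% of FPKM, which divides by length. Of the 10 unigenes most like the pair, 4 remained with log2(FPKM + 0.5), 0 with Spearman’s rho, at which 91 unigenes tied at 1, and 2 without Y+S3.

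Counts of calls at an adjusted p of 0.05 depended on the tool and the libraries. Over 4 libraries edgeR called 34 unigenes in all (29 higher and 5 lower), DESeq2 1033, edgeR without the filter 954, and edgeR with 1 library left out 0 to 6513. The 0 came without Y2 and without Y3, and 3569 and 6513 came without Y+S1 and without Y+S2, where the lone library was taken to vary like the other group. For family 82 outside the pair, the 4-library count of 1 became 3 with DESeq2, 2 without the filter, 2 with limma on log2(FPKM + 0.5) and on log2(FPKM + 1), and 0 to 5 with 1 library left out. For the coumarin and iron lists the 0 became 4 with DESeq2, 3 without the filter and 0 to 24 with 1 library left out. Over 6 libraries edgeR called 0 unigenes (4782 at an unadjusted p below 0.05), DESeq2 592, limma 11 with log2(FPKM + 0.5) and 1 with log2(FPKM + 1), and edgeR with 1 library left out 0 to 7, the 7 without Y+S3. The 0 of family 82 became 2 with DESeq2 and 2 with limma on log2(FPKM + 0.5), and that of the coumarin and iron lists 5 with DESeq2. The cause of these differences was not tested.

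Counts without overlap changed when taken over the 4 libraries, a choice made after seeing the data: 16 higher and 5 lower for feruloyl-CoA supply, 2 higher and 12 lower for iron storage, 15 higher and 14 lower for iron uptake, 42 higher and 28 lower for the other P450s, 22 lower for the electron donors, and 2 lower each for coumarin enzymes and for family 82 outside the pair, against 22.97% higher and 24.97% lower among all unigenes. In FPKM the counts were 0 higher and 4 lower for iron uptake and 0 higher and 7 lower for the electron donors. A fit with the replicate number as a block called 0 unigenes over 6 libraries, with a smallest adjusted p of 0.408 in edgeR, and gave log2 fold changes of 4.03 and 1.89 for the pair. Deviations of same-numbered libraries had correlations of -0.40, 0.01 and -0.49. These gave no sign of pairing by number, which so few values cannot exclude. The 4 libraries share 1 number only, so no block could be fitted there. Of the log2 fold changes of the 28 other named unigenes under alternatives, 570 kept their direction and side of the threshold, 52 passed it newly, 5, all of Unigene2785 and CL7072.Contig2, no longer passed it, and 12, none of them past it, changed direction. A further 5 had no adjusted p and were left out. CL7072.Contig2, called by edgeR over 4 libraries (adjusted p = 0.0130), lost the call without Y2 (0.167) and without Y3 (0.146). These 12 came from leaving out 1 library, which gave -0.83 to 0.029 for CL1804.Contig1, -0.51 to 0.058 for CL1804.Contig2, -0.61 to 0.59 for Unigene15696, -0.31 to 0.040 for Unigene10616, -0.48 to 0.13 for CL498.Contig2, -0.083 to 0.27 for Unigene10114 and -1.35 to 0.32 for CL9859.Contig1 over 6 libraries, and -0.83 to 0.065 for Unigene10464 and -0.28 to 0.49 for Unigene15696 over 4. In sunlight the level of CL10604.Contig1 rests on 5 to 9 fragments a library, which limits its fold change.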
